A study of Mus musculus with 12 samples.

Results

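The genes described here encode the mitochondrial respiratory chain and ATP synthase. They were chosen by symbol, from a list drawn up with earlier results of these data known: every gene whose name starts with Nduf, Uqcr, Cox4 to Cox8 or Atp5, together with Sdha to Sdhd and Cycs. Of 8267 genes that the platform's annotation names by a single symbol, 60 met this rule: 22 subunits of complex I, 6 complex I assembly factors, 3 subunits of complex II, 4 of complex III, 10 of complex IV, 14 of complex V (the ATP synthase) and cytochrome c. They were read by 65 probes, since 5 genes had 2 probes, which were averaged. Genes of the mitochondrial DNA were not among the named probes, so the data cover nuclear genes.

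Expression was measured in MECs, a mouse intraembryonic endothelial cell line, on 12 two-colour oligonucleotide arrays in 4 groups of 3 arrays. MECs were treated with BMP6, a secreted ligand of the bone morphogenetic protein family, for 4, 12 or 24 h, and the control cells were mock-treated. Every array carried MEC RNA in Cy5 against the same universal mouse reference RNA in Cy3, and the triplicates were independent biological replicates, per the series' design text. The labels give the control cells no time, a single control group serves all 3 comparisons, and all groups come from 1 cell line, so the data say nothing of other endothelial cells.

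The respiratory chain passes electrons from NADH (complex I) and succinate (complex II) through complex III and the mobile carrier cytochrome c to complex IV, which reduces oxygen. The proton gradient built along the way drives ATP synthase. Most subunits are encoded in the nucleus, and their transcripts often rise and fall together across tissues. Endothelial cells obtain much of their ATP from glycolysis, and in them the chain is also known as a source of reactive oxygen species and of signals for growth.

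All values below are log2 ratios of MEC RNA to reference RNA. No source used here states the base of the logarithm or the direction of the ratio. The direction was read from the labels' dyes, and base 2 was assumed. Read the other way round, each rise would be a fall, at the same adjusted p, and each level above the reference would lie below it. Gene names also rest on an order of the rows that was inferred from the data: in that order the first 2 probes of a gene correlated at r = 0.471 across 1831 genes, which are not independent replicates, against r = 0.0207 in the order as deposited. Since the order came from these same data, this difference is no independent check of it. The 12 arrays correlated with each other at 0.877 to 0.98. The BMP target genes Id1, Id2, Id3 and Ptgs2 rose at 4 h (4 of 4 in the paired test described below), with changes of 0.64 to 1.35, and without pairing 1 of the 4 (Ptgs2) passed. RNA came from whole cultures, so fewer cells expressing a gene and less RNA per cell cannot be told apart. Of 7 endothelial markers measured, all 7 had control means below 0, from -1.62 for Cdh5 to -0.01 for Sox18, which is below the reference RNA as the ratio is read here and would be above it in the opposite direction. Of 7 epithelial markers, 6 had control means below 0, from -2.27 for Epcam to -0.40 for Cldn3, and Krt19 had 0.38. Of 5 mesenchymal markers, Postn had -4.30 and Col3a1 -0.26, while Col1a1, Col1a2 and Prrx1 had 0.23, 0.61 and 0.62. The 3 blood and 5 muscle markers were below 0. At 4 h, in the paired test, which 6.02% of all genes passed, 2 of 5 mesenchymal markers fell (Prrx1 by 0.49 and Col3a1 by 0.24). In the same test 1 of 7 endothelial markers (Flt1) and 1 of 5 muscle markers (Tnnt2) rose with a change of 0.23 each. Without pairing none of these 4 passed (limma adjusted p = 0.195, 0.214, 0.346 and 0.778), and with single arrays left out the highest paired adjusted p was 0.0476, 0.124, 0.147 and 0.13. Their part in the results below was not tested. Spot intensities were not used here, so nothing is said of whether a probe was above background.

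For most respiratory chain genes the largest differences lay between arrays with different replicate numbers, not between BMP6 and control. The replicate number accounted for a median of 78.1% of a member's sum of squares over the 12 arrays, the treatment group for 8.2%, and 12.2% was left. Over all 8267 genes the medians were 51.2%, 18.9% and 22.7%. In 47 of the 60 members (78.3%) the array numbered 2 was the lowest of its group in all 4 groups, which held for 18.3% of all genes. In 44 members (73.3%) the mean over the 4 arrays of number 3 was highest and that of number 2 lowest, against 18.9% of all genes. In 4 members, Ndufaf2, Ndufaf4, Ndufv3 and Sdhc, the treatment group held the larger share, for Ndufaf4 50.2% against 33.1% for the number. The labels do not say what arrays with the same number share, so the source of this difference was not tested.

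Averaged over the 60 members, the log2 ratio was 0.001, -0.31 and 0.25 in control replicates 1, 2 and 3. It was -0.046, -0.28 and -0.060 at 4 h, 0.001, -0.24 and 0.090 at 12 h, and 0.070, -0.32 and 0.14 at 24 h. In each of the 4 groups replicate 2 was lowest, and the replicates of a group spread over more than the group means did. Replicate 3 stood above replicate 1 in the control group and slightly below it at 4 h.

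**Figure D1:**
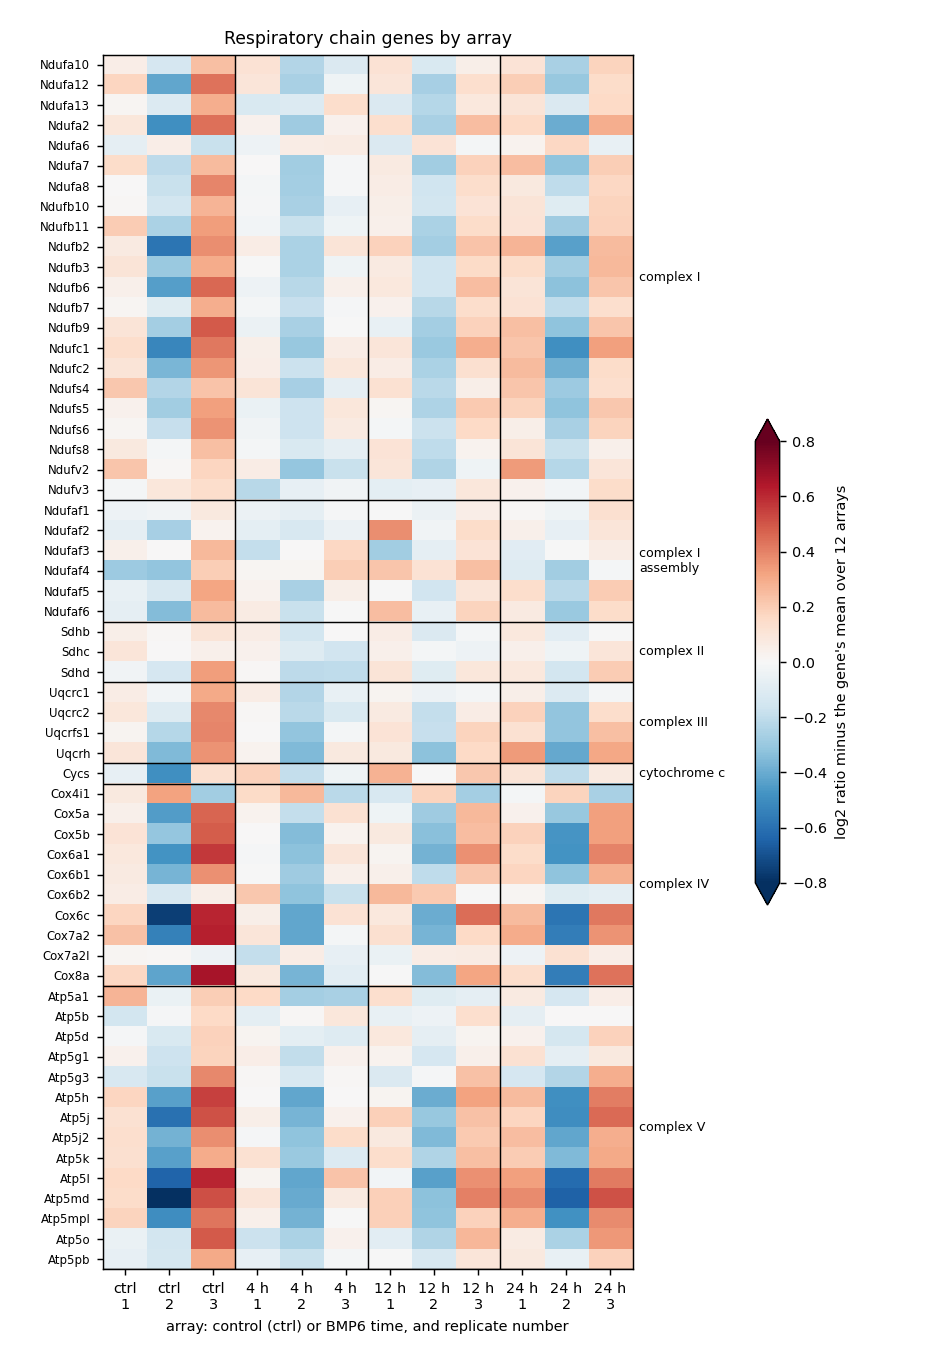
Heat map of the 60 members (rows, by complex) on the 12 arrays (columns: control, then 4, 12 and 24 h of BMP6, each with replicates 1 to 3), coloured by the log2 ratio minus the gene's mean over the 12 arrays. Replicate 2 of every group is blue for most genes and control replicate 3 is red. Cox4i1 and Ndufa6 run the other way.

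The complexes shared this order to different degrees. The replicate number held a median of 86.2% of the sum of squares in complex IV, 82.1% in complex V, 78.7% in complex I and 69.9% in complex III. It held 65.6% among complex I assembly factors, 57.6% for Cycs and 44.1% in complex II. Complex IV genes also had the widest median range over the arrays, 0.93, against 0.63 for all members, 0.25 for complex II and 0.40 for all genes. The widest single ranges were 1.46 for Atp5md, a small membrane subunit of ATP synthase, 1.36 for Cox6c, a subunit of complex IV, 1.25 for Atp5l, a membrane subunit of ATP synthase, and 1.21 for Cox8a, the widely expressed form of complex IV subunit 8.

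Atp5md shows the pattern in 1 gene. Its log2 ratio was 0.21, -0.88 and 0.58 in control replicates 1, 2 and 3, 0.16, -0.34 and 0.14 at 4 h, 0.26, -0.27 and 0.47 at 12 h and 0.44, -0.58 and 0.57 at 24 h. Replicate 2 was the lowest array of every group, and the groups overlapped throughout.

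The members also resembled each other array by array. The Pearson correlation of a member with the mean of the other members over the 12 arrays had a median of 0.942, and it exceeded 0.8 in 43 of 60 members. After the mean of each replicate number was removed, the median was 0.827. These correlations are descriptions with no p-value, since the arrays share replicate numbers and the reference RNA. The closest members were Cox6b1 (r = 0.993), the somatic form of complex IV subunit 6B, Atp5h (0.991), a stalk subunit of ATP synthase, and Ndufb3 (0.99) and Cox5b (0.99). By complex the median correlation was 0.98 in complex IV, 0.957 in complex I, 0.947 in complex III and 0.938 in complex V. It was lower in complex II, at 0.713, and among the assembly factors, at 0.669. In the row order as deposited the same median was 0.039, and 0 of 60 members exceeded 0.8, which is likewise no independent check of the order used.

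**Figure D2:**
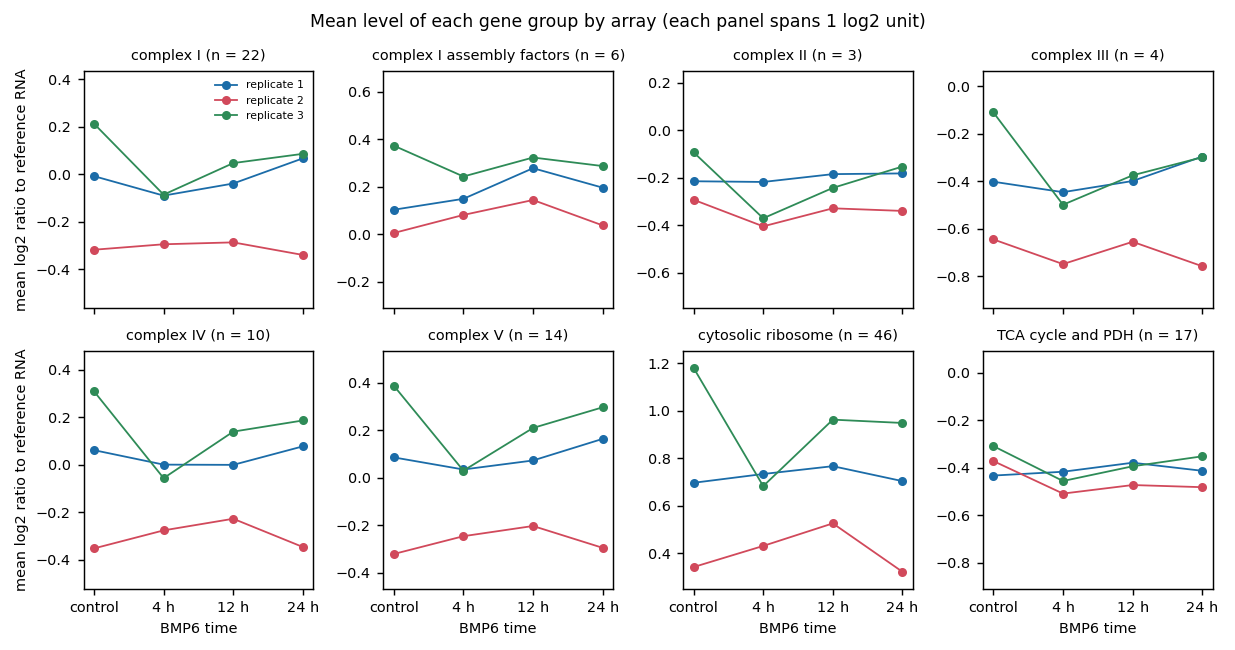
Mean log2 ratio to the reference RNA of 6 groups of respiratory chain genes, of the cytosolic ribosomal proteins and of the TCA cycle genes with pyruvate dehydrogenase (PDH), by array. Lines join arrays of the same replicate number from control through 4, 12 and 24 h of BMP6. Replicate 2 is lowest at all times in all 6 groups of respiratory chain genes and in the 46 cytosolic ribosomal genes. In the TCA cycle genes with PDH, control replicate 1 is the lowest control.

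The likeness was not limited to mitochondrial genes. Among the 8207 other genes the median correlation with the mean of the members was 0.102, and 668 (8.14%) exceeded 0.8. Cytosolic ribosomal protein genes had a median of 0.927, with 37 of 46 above 0.8. Their mean log2 ratio was 0.73, 0.43 and 0.68 in replicates 1, 2 and 3 at 4 h, against 0.70, 0.34 and 1.18 in controls. Mitochondrial genes outside the chain had medians below the 0.942 of all members. These were 0.906 for 7 genes of reactive oxygen defence, 0.707 for 18 import genes, 0.521 for 52 mitochondrial ribosomal genes and 0.434 for 17 genes of the TCA cycle and pyruvate dehydrogenase. The 0.906 was above the medians of complex II (0.713) and of the complex I assembly factors (0.669). The 20 carriers and assembly factors of the chain outside the member rule had 0.471, and 18 regulators of mitochondrial biogenesis and transcription had 0.277. Glycolysis genes had a median of 0.425 over 15 genes. The differences between these lists were not tested. The 5 genes outside the members with the highest correlation were Pet100 (0.984), a factor in complex IV biogenesis, Rpl37a (0.984), a cytosolic ribosomal protein, Mrps36 (0.983), Micos10 (0.98), a protein of the inner membrane folds, and Eef1b2 (0.979), a translation elongation factor.

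Of the 60 members, 3 had a negative correlation with the rest. Cox4i1, the widely expressed form of complex IV subunit 4, had r = -0.862. Its log2 ratio was -0.23, 0.015 and -0.58 in control replicates 1, 2 and 3, -0.16, -0.045 and -0.53 at 4 h, -0.44, -0.13 and -0.58 at 12 h and -0.32, -0.13 and -0.56 at 24 h. Replicate 2 was thus the highest and replicate 3 the lowest array in every group. Ndufa6, an accessory subunit of complex I, had r = -0.818, with -0.59, -0.46 and -0.69 in controls, -0.55, -0.46 and -0.45 at 4 h, -0.63, -0.40 and -0.53 at 12 h and -0.49, -0.35 and -0.57 at 24 h. Its replicates ranked in the reverse of the shared order in controls and at 24 h. Cox7a2l, which takes part in joining complexes III and IV, had r = -0.347, and its values stayed between -0.50 and -0.19 on all 12 arrays. Each of these genes had 1 probe.

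How far a single probe stands for its gene can be read in the 5 members with 2 probes. The probes of Cox5a correlated at 0.923 over the 12 arrays, those of Atp5a1 at 0.466, those of Atp5pb at -0.117, those of Sdhb at -0.203 and those of Atp5b, the catalytic beta subunit of ATP synthase, at -0.609. In control replicates 1, 2 and 3 the first Atp5b probe had -0.092, -0.14 and 0.46, and the second -0.37, -0.052 and -0.31. The arrays thus ranked differently by the 2 probes, and the average of Atp5b hid this. Several members have near-identical gene copies or processed pseudogenes, and cross-hybridization was not tested.

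Against the reference RNA, control means of 24 of the 60 members lay above 0, compared with 4326 of 8267 genes. With the ratio read in the opposite direction, these counts would be 36 of 60 and 3940 of 8267. None of the 3 complex II genes and none of the 4 complex III genes was above 0, and in the opposite direction all 7 would be. Cox6b2, the form of subunit 6B known from testis, had -1.50 ± 0.10 (SD, n = 3 controls), and its somatic counterpart Cox6b1 had -0.26 ± 0.37. Control means above 0 included 0.63 ± 0.54 for Cox8a, 0.51 ± 0.52 for Cox6a1, the form of subunit 6A used outside muscle, and 0.59 ± 0.31 for Atp5g3, which encodes the ring subunit c of ATP synthase. Atp5g1, which encodes the same mature subunit c, had 0.33 ± 0.17. Levels of different probes were not set against each other, because each is relative to its own signal in the reference.

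Promoter windows were examined because the members moved together from array to array. RefSeq windows on GRCm38.p6, from 250 bases before to 50 after the annotated start, were at hand for 51 of the 60 members. Respiratory chain promoters are known for sites of NRF1, of the ETS factor GABP and of YY1, and the letters searched on both strands were GCGCA, any base, then GCGC for NRF1, CCGGAAG for ETS factors and AAGATGGC for YY1. The NRF1 letters were found in 13 of 51 windows (25.5%), against 4.78% of 27025 windows of all genes and 6.6% of 17492 protein-coding windows. The palindromic spelling, with T as the free base and so contained in the first, was found in 5 (9.8%), against 0.977% of all windows and 1.32% of protein-coding ones. The ETS letters were in 14 (27.5%), against 9.12% and 11.9%, and the YY1 letters in 5 (9.8%), against 2.88% and 3.22%. Matches of different motifs overlapped in 1 window of the whole table.

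Among the 37 members with a window and a correlation above 0.8, 9 held the NRF1 letters, 12 the ETS letters and 5 the YY1 letters, and 21 held at least 1 of them. Among the other 14, the counts were 4, 2, 0 and 6. Shown here are 3 members that followed the shared order closely (Cox6a1, Atp5h and Cox8a), then Ndufa6, which ran against it, and Ndufaf4, whose time course is described below. Capitals mark the NRF1 and ETS letters on either strand.
Cox6a1, chr5:115348909-115349208, minus strand: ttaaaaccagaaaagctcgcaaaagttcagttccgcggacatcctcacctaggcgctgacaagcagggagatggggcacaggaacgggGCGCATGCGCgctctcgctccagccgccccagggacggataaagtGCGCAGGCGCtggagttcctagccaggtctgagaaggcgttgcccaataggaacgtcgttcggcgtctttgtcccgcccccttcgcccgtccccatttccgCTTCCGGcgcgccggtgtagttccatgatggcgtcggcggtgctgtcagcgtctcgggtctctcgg
Atp5h, chr11:115419870-115420169, minus strand: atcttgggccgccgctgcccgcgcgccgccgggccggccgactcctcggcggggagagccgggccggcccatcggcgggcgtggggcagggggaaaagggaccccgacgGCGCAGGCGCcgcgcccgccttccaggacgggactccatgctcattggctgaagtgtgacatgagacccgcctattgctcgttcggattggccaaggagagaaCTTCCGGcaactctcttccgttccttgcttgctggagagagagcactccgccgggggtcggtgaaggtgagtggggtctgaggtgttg
Cox8a, chr19:7217567-7217866, minus strand: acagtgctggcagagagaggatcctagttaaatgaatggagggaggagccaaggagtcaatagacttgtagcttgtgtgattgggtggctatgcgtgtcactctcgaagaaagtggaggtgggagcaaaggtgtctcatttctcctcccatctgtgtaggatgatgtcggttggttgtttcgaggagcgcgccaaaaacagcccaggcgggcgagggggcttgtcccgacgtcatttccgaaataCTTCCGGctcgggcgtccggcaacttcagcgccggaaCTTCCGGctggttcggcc
Ndufa6, chr15:82354242-82354541, minus strand: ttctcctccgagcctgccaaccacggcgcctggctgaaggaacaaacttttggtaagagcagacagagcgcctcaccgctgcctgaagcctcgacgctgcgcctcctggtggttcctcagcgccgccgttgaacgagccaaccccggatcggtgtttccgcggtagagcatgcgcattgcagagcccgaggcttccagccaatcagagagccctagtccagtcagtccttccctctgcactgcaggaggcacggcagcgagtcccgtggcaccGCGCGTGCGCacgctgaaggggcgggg
Ndufaf4, chr4:24897833-24898132, plus strand: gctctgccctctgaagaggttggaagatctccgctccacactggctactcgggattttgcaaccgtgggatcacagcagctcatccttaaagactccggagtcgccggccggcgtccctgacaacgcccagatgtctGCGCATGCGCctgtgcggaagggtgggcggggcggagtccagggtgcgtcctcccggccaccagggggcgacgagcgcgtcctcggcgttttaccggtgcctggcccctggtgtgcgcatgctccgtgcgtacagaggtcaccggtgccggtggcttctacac
The NRF1 letters stand in the windows of Cox6a1 and Atp5h and equally in that of Ndufa6, while Cox8a holds only ETS letters. The windows of Ndufv2 and Cycs held none of the 3 motifs. A match describes letters in the window and does not show that a factor binds there.

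BMP6 was compared with control in a limma fit across all 8267 genes that pairs arrays by the replicate number of their titles, with Benjamini-Hochberg adjustment over all genes and a threshold of 0.05. A fit without pairing is given beside it where the call differs. The arrays paired in this way deviated together: correlations of deviations from the group means were 0.446 to 0.756 for same-numbered arrays and -0.561 to 0.037 for others. Deviations within a group cancel out by construction, so positive correlations of same-numbered arrays push those of the others down.

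At 4 h, 1 of the 60 members passed the test, against 6.02% of all genes. That gene was Ndufv2, an iron-sulphur subunit of the part of complex I that oxidizes NADH. Its log2 ratio was -0.30, -0.67 and -0.54 in BMP6 replicates 1, 2 and 3 at 4 h, against -0.14, -0.35 and -0.19 in control replicates 1, 2 and 3. Each BMP6 array lay below the control of the same number, with differences of -0.16, -0.32 and -0.34 in pairs 1, 2 and 3, although the groups overlapped. The mean was -0.50 ± 0.19 at 4 h and -0.23 ± 0.11 in controls (SD, n = 3 each), a change of -0.27 (SE 0.063, 95% interval -0.41 to -0.13, limma adjusted p = 0.0319). Without pairing the adjusted p was 0.754, and 0 members passed, against 0.169% of genes. At 12 h the change was -0.19 (limma adjusted p = 0.161) and at 24 h -0.063 (limma adjusted p = 0.871).

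The change of Ndufv2 stayed between -0.33 and -0.23 when any single array was left out, but the limma adjusted p was above 0.05 without 8 of the 12 arrays. It was 0.14 and 0.0833 without control replicates 2 and 3, and 0.0555, 0.0832 and 0.138 without the 4 h replicates 1, 2 and 3. It was 0.0516 and 0.0566 without the 12 h replicates 2 and 3, and 0.053 without the 24 h replicate 3.

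The other members lay mostly on the lower side at 4 h without passing the test. Of the 60, 51 had a change below 0 and 9 above, against 52.3% of all genes below 0. The members' median was -0.11, while the median of all genes was -0.006. In single pairs, 45 of 60 members were below control in pair 1, 26 in pair 2 and 58 in pair 3, and the pair medians were -0.065, 0.018 and -0.33. The direction of the list thus differed between pairs. In all 3 pairs 18 members were lower and 1 was higher, where 20.1% and 14.7% of all genes were. At an unadjusted limma p under 0.05 there were 19 members, against 21.3% of all genes.

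Of the 46 cytosolic ribosomal genes, 37 were below 0 at 4 h, with a median of -0.14, and this rested on pair 3: 16, 15 and 43 genes were lower in pairs 1, 2 and 3, with pair medians of 0.026, 0.060 and -0.55. The 7 genes of reactive oxygen defence were all below 0, with a median of -0.12 and pair medians of 0.026, -0.11 and -0.26. Control replicate 3, the array with the highest mean of the members, moved with the result for the members. Without it their split at 4 h was 41 below and 19 above 0, with a median of -0.045. Without all 4 arrays of number 3 it was 36 below and 24 above, with a median of -0.018.

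**Figure D3:**
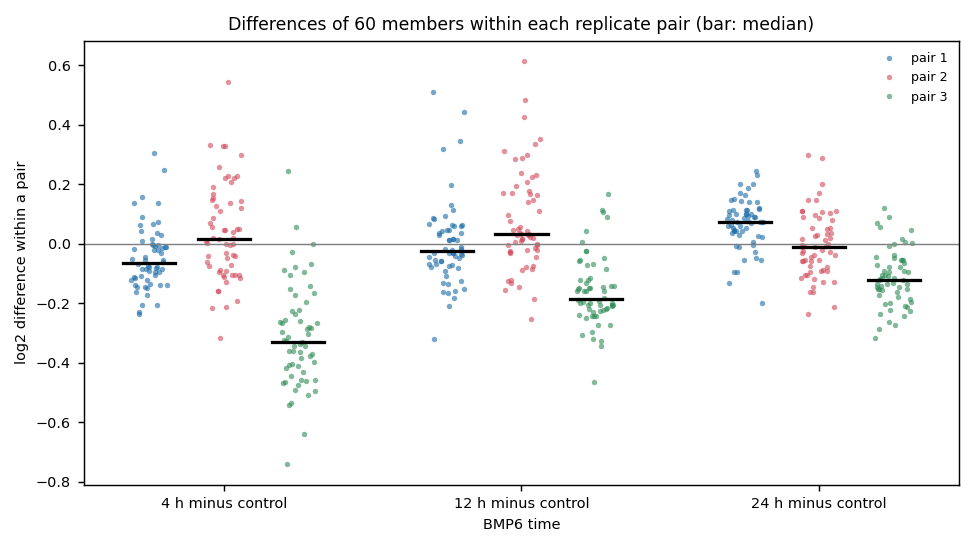
Log2 difference between BMP6 and control for each of the 60 members (points) within replicate pairs 1, 2 and 3, at 4, 12 and 24 h, with the median of each pair as a bar. Pair 3 lies lowest at each time, with medians of -0.33, -0.19 and -0.12, and pair 2 lies near 0, with 0.018, 0.034 and -0.010.

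By complex, all 4 complex III genes and all 3 complex II genes had changes below 0 at 4 h, as did 20 of 22 in complex I, 9 of 10 in complex IV, 12 of 14 in complex V and 3 of 6 assembly factors. The medians were -0.18 in complex III, -0.13 in complex I, -0.12 in complex II, -0.10 in complex V, -0.099 in complex IV and -0.015 among assembly factors. Of these genes only Ndufv2 passed the test.

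Within complex I, Ndufv3, an accessory subunit of the same NADH-oxidizing part as Ndufv2, had a change of -0.18 at 4 h (SE 0.050, limma adjusted p = 0.0638). Its log2 ratio was -0.998, -0.85 and -0.81 at 4 h and -0.79, -0.69 and -0.64 in controls, so the groups did not overlap, the only such case among the 60 members at that time, against 10.1% of all genes. It is named after its values were seen. Ndufs8, an iron-sulphur subunit on the path of electrons to ubiquinone, had -0.017, -0.12 and -0.074 at 4 h, against 0.074, -0.020 and 0.24 in controls, and a change of -0.17 (limma adjusted p = 0.142). Ndufb2, an accessory subunit of the membrane arm, differed by -0.013, 0.33 and -0.27 in the 3 pairs, so its change of 0.017 averaged opposite signs. Ndufa6 was higher in all 3 pairs at 4 h and again at 24 h, by 0.095 and 0.11 (limma adjusted p = 0.4 and 0.704).

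In complex II, the changes at 4 h were -0.083 for the iron-sulphur subunit Sdhb, and -0.12 and -0.19 for the membrane anchors Sdhc and Sdhd. The last of these rested on pair 3: its pairs differed by 0.043, -0.074 and -0.54. In complex III, the core subunit Uqcrc2 had -0.63, -0.86 and -0.76 at 4 h, against -0.55, -0.74 and -0.25 in controls, with a change of -0.23 (SE 0.085, limma adjusted p = 0.139). The partner core subunit Uqcrc1, the Rieske protein Uqcrfs1 and the hinge protein Uqcrh had changes of -0.19, -0.17 and -0.12 (limma adjusted p = 0.149, 0.203 and 0.438). In each of these 4 genes pair 3 had the most negative difference.

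In complex IV, Cox8a had the most negative change at 4 h, -0.26 (SE 0.13, limma adjusted p = 0.285). Its log2 ratio was 0.57, 0.12 and 0.41 at 4 h, against 0.66, 0.070 and 1.15 in controls. Pair 3 differed by -0.74, where pairs 1 and 2 differed by -0.085 and 0.051. Cox7a2, the form of subunit 7A used outside muscle, had pair differences of -0.14, 0.13 and -0.64, and Cox6a1 of -0.094, 0.15 and -0.47, the same shape. The changes of Cox4i1 and Cox6b2 were 0.023 and -0.086 (limma adjusted p = 0.862 and 0.653).

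In complex V, Atp5a1, the alpha subunit of the catalytic head, had 0.006, -0.42 and -0.41 at 4 h, against 0.12, -0.21 and 0.044 in controls. It was lower in 3 of 3 pairs at each of the 3 times, with changes of -0.26, -0.15 and -0.14 at 4, 12 and 24 h (limma adjusted p = 0.0639, 0.367 and 0.697). With single arrays left out, its limma adjusted p at 4 h ranged from 0.0218, without the 4 h replicate 1, to 0.248. These values are averages of 2 probes that correlated at 0.466, and neither probe alone was lower in every pair at every time. The first was above its control in pair 3 at 24 h (0.068 against 0.044). The second was above its control in pair 1 at 4 h (-0.192 against -0.199). In pair 3 at 4 h the second probe had -0.75 against 0.043, and the first -0.076 against 0.044. The ring subunit genes Atp5g1 and Atp5g3 had changes of -0.052 and -0.063 at 4 h, with pair 3 lowest in both.

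**Figure D4:**
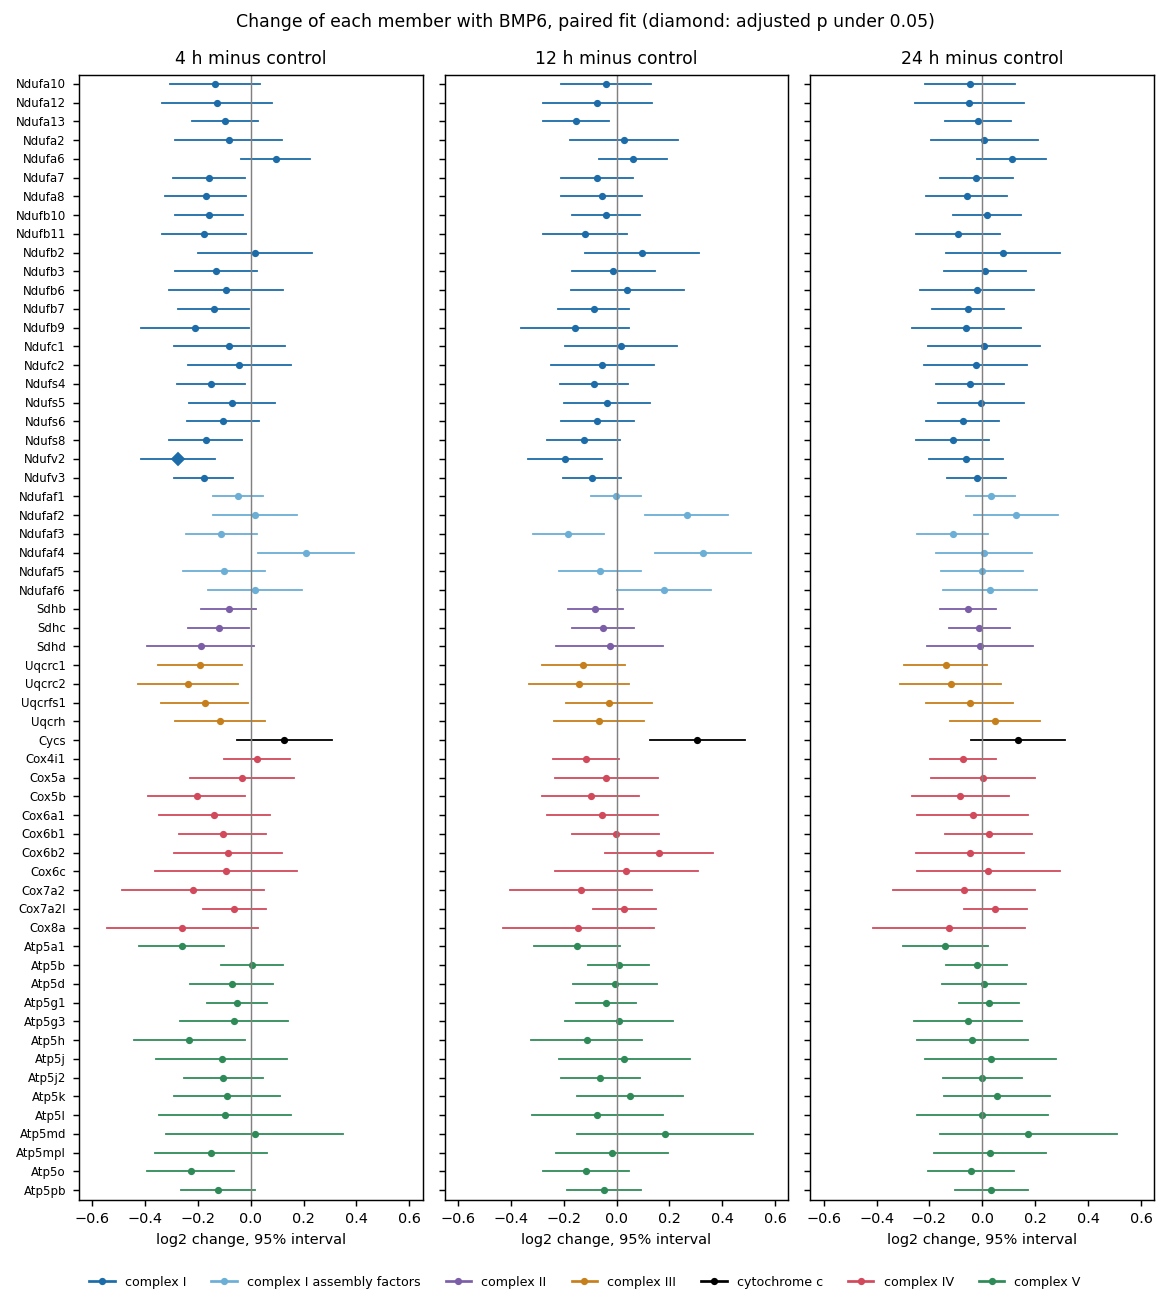
Log2 change of each member at 4, 12 and 24 h of BMP6 against control in the paired limma fit, with 95% intervals, coloured by complex. Ndufv2 at 4 h is the 1 value with an adjusted p under 0.05. The intervals lie within 0.5 on either side of 0 for 59, 58 and 59 of the 60 members.

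At 12 h, 0 of 60 members passed the test, where 1.89% of all genes did. At an unadjusted limma p under 0.05 there were 7 members, against 15.4% of all genes, and without pairing 0 members passed. The changes were below 0 in 43 members and above 0 in 17, against 50.6% of all genes below 0. The members' median was -0.049, with pair medians of -0.024, 0.034 and -0.19. Without control replicate 3 the split turned, with 23 below and 37 above 0 and a median of 0.025. In all 3 pairs 13 members were lower and 3 were higher, where 17.5% and 14.7% of all genes were.

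The 3 members higher in every pair at 12 h were Ndufaf4, Cycs and Ndufaf2. Ndufaf4, an assembly factor that works with Ndufaf3 early in building complex I, had 0.46, 0.44 and 0.95 in controls, 0.77, 0.77 and 0.95 at 4 h, 0.97, 0.87 and 0.99 at 12 h and 0.65, 0.48 and 0.74 at 24 h. Control replicate 3 stood far above the other two controls, while the 12 h arrays lay close together, 2 of them above every control. The change was 0.33 at 12 h (SE 0.081, 95% interval 0.15 to 0.51, limma adjusted p = 0.0795), 0.21 at 4 h (adjusted p = 0.167) and 0.005 at 24 h (adjusted p = 0.996). Without control replicate 3 the 12 h change was 0.45 (limma adjusted p = 0.00852) and the 4 h change 0.33 (limma adjusted p = 0.013). No other array, left out singly, gave a call of Ndufaf4 at either time. Without pairing the adjusted p at 12 h was 0.968.

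Cycs, cytochrome c, which also takes part in apoptosis when released from mitochondria, had 0.032, -0.39 and 0.22 in controls, 0.28, -0.094 and 0.059 at 4 h, 0.38, 0.091 and 0.31 at 12 h and 0.20, -0.10 and 0.17 at 24 h. Replicates 1 and 2 were above their controls at every time, and replicate 3 was above its control at 12 h and below it at 4 and 24 h. The change was 0.31 at 12 h (SE 0.080, 95% interval 0.13 to 0.48, limma adjusted p = 0.0936). It was 0.13 at 4 h and 0.14 at 24 h (adjusted p = 0.41 and 0.762). Without control replicate 3 the 12 h change was 0.42 (limma adjusted p = 0.00939) and the 4 h change 0.24 (limma adjusted p = 0.0435). No other array, left out singly, gave a call of Cycs at either time, and at 4 h the limma adjusted p then reached 0.802.

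Ndufaf2, an assembly factor of the late steps of complex I, had 0.47, 0.074 and 0.25 at 12 h, against 0.030, -0.16 and 0.13 in controls, a change of 0.27 (SE 0.071, limma adjusted p = 0.0973). Ndufaf3, the partner of Ndufaf4, differed the other way: -0.89, -0.69 and -0.51 at 12 h against -0.57, -0.61 and -0.36 in controls. It was below control in 3 of 3 pairs at 4, 12 and 24 h, with changes of -0.11, -0.18 and -0.11 (adjusted p = 0.341, 0.171 and 0.713). The assembly factors therefore did not share a direction, and their median of 0.089 at 12 h covered values from -0.18 to 0.33.

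**Figure D5:**
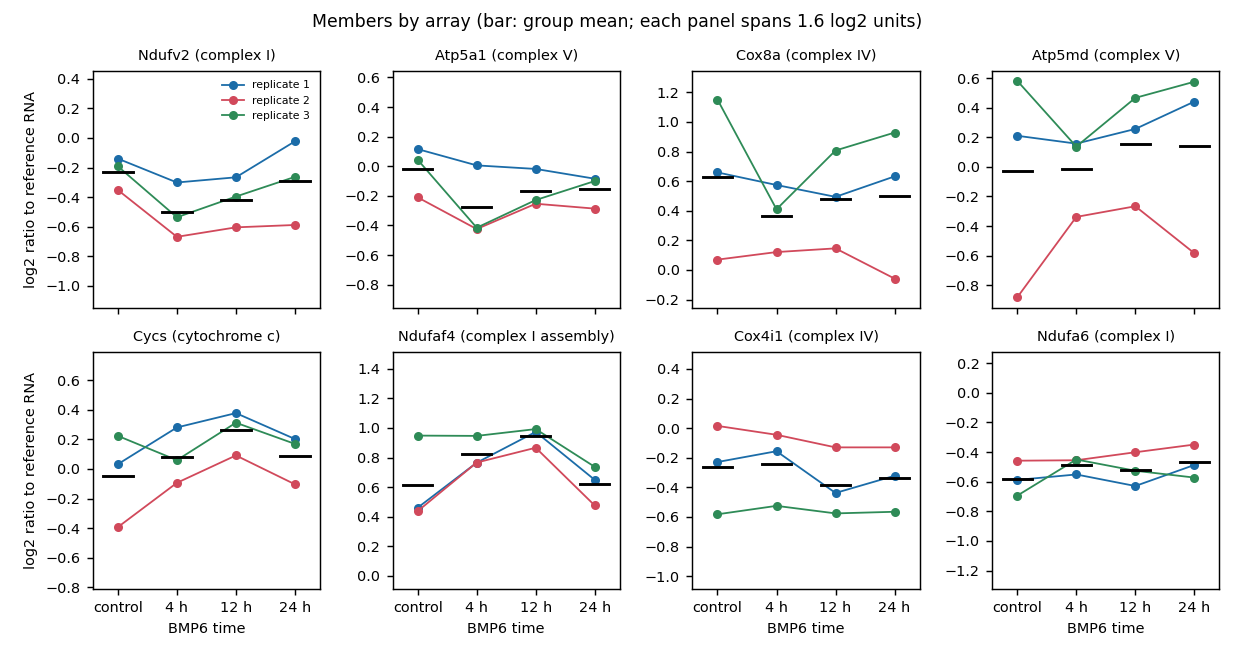
Log2 ratio to the reference RNA of 8 members on the 12 arrays, in controls and at 4, 12 and 24 h of BMP6, with lines joining arrays of the same replicate number and bars at group means. Ndufv2 is lower at 4 h in all 3 pairs, Cycs and Ndufaf4 have their highest means at 12 h, and in Cox8a and Atp5md the replicates differ more than the times.

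At 24 h, 0 of 60 members passed the test, where 0.169% of all genes did, and 0 had an unadjusted limma p under 0.05, against 7.94% of all genes. Without pairing 0 members passed as well. The changes were above 0 in 23 members and below 0 in 36, against 52.6% of all genes below 0. The members' median was -0.018. When each array was centred on its own median, the split was 17 above and 43 below, and after quantile normalization it was 28 and 32. Without control replicate 3 the split turned, with 46 above and 14 below 0 and a median of 0.052. It also turned without the 24 h replicate 2 (39 and 21, median 0.016) and without all 4 arrays of number 3 (40 and 20, median 0.036). In all 3 pairs 6 members were lower and 3 were higher, against 14.6% and 13.7% of all genes. Uqcrc1 and Cox8a, with changes of -0.14 and -0.13, were among the 6, and their adjusted p was 0.689 and 0.88.

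At 4, 12 and 24 h the 95% interval of the paired fit lay within 0.5 of 0 for 59, 58 and 59 of the 60 members. The intervals that went past it were those of Cox8a at 4 h (-0.54 to 0.027), Atp5md at 12 h (-0.15 to 0.52) and 24 h (-0.16 to 0.51), and Ndufaf4 at 12 h. The median half-width was 0.16. In data simulated for the 4 h comparison over 8267 genes, the paired test found 36% of genes set to change by 0.25 and 86% of those set to change by 0.5. The simulation used the same paired model with independent noise for each gene, and its changed genes were drawn from all genes. The members had a larger median SE, 0.073 against 0.062 over all genes, and moved together, so these shares cannot be carried over to them.

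BMP6 times were also compared with each other, with no control arrays in the difference. At 12 h against 4 h, 54 of 60 members were higher and 6 lower, against 4351 of 8267 genes higher. The members' median was 0.084, against 0.007 over all genes, and their pair medians were 0.046, 0.028 and 0.17. In all 3 pairs 32 members were higher, where 24.9% of all genes were. At 24 h against 4 h, 56 members were higher and 4 lower, against 4404 of 8267 genes higher. The members' median was 0.10, against 0.009 over all genes, and their pair medians were 0.12, -0.051 and 0.20. Here 12 members were higher in all 3 pairs, where 21.9% of all genes were. The members moved together across arrays, so these counts are not of independent genes. In both comparisons 0 members passed the paired test, against 1.29% and 4.05% of all genes, and 3 and 6 members had an unadjusted limma p under 0.05, against 15.0% and 19.1%. Ndufv2 had the smallest adjusted p, with a change of 0.21 at 24 h against 4 h (limma adjusted p = 0.0925). The F test over the 3 times called 0 members, against 4.98% of all genes, with 7 members at an unadjusted p under 0.05, against 20.5%. Its smallest limma adjusted p values were 0.0795 for Ndufaf4 and 0.0811 for Ndufv2.

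Other genes around the chain were tested in the same paired fit, which called 6.02% of all genes at 4 h and 1.89% at 12 h. Among 17 genes of the TCA cycle and pyruvate dehydrogenase, 2 fell at 4 h and 0 rose. They were Pdha1, a subunit of pyruvate dehydrogenase that feeds carbon into the TCA cycle, by 0.19 (limma adjusted p = 0.0487), and Pdk1, a kinase that switches pyruvate dehydrogenase off, by 0.24 (limma adjusted p = 0.0402). Pdk1 was also lower at 12 h, by a change of -0.28 (limma adjusted p = 0.0487). Among 15 glycolysis genes, Hk2, which traps glucose as glucose-6-phosphate, rose at 4 h with a change of 0.35 (limma adjusted p = 0.00724), and Pfkm and Tpi1 fell with changes of -0.25 and -0.54 (limma adjusted p = 0.0433 and 0.0188). Pair 3 had the largest difference for Tpi1, -0.96, against -0.21 and -0.46 in pairs 1 and 2.

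Among 18 regulators of mitochondrial biogenesis and transcription, 1 rose and 1 fell at 4 h, where 6.02% of all genes were called. Myc, a transcription factor for growth and ribosome genes, had a change of 0.32 (limma adjusted p = 0.00498), and Tfb1m, a methyltransferase of mitochondrial ribosomal RNA, had -0.42 (limma adjusted p = 0.0138). At 4, 12 and 24 h the paired fit called 0 of 46 cytosolic ribosomal genes, 0 of 52 mitochondrial ribosomal genes, 0 of 18 import genes, 0 of 20 carriers and assembly factors outside the members, 0 of 7 genes of reactive oxygen defence and 0 of 10 genes of the V-type proton ATPase. Of all genes the paired fit called 6.02%, 1.89% and 0.169% at these times. The unpaired fit called 0 in each of these lists too. In the paired fit, 8, 10, 2, 3, 3 and 2 of their genes had an unadjusted limma p under 0.05 at 4 h. The share of all genes was 21.3%. The unpaired fit called none of Pdha1, Pdk1, Hk2, Pfkm, Tpi1, Myc or Tfb1m. With single arrays left out, the highest adjusted p at 4 h was 0.0322 for Myc and 0.0416 for Hk2, and it was above 0.05 for Tfb1m (0.0515), Tpi1 (0.0615), Pdha1 (0.185), Pdk1 (0.165) and Pfkm (0.176).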

How the data were processed

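The 12 two-colour arrays were scanned and quantified with GenePix Pro 5.0 by the authors, per the series' design text, which also names a modified quantiles local normalization and an unpaired, equal-variance Student test for the authors' calls. The deposited values were taken as log2 ratios of Cy5 over Cy3, per the labels' dyes. Each array held 20280 values with 0 missing, array medians from -0.044 to 0.002 and array SDs from 0.607 to 0.688. The number of arrays limits the precision. Groups and replicate numbers came from the sample titles.

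Platform annotation listed 11083 probes, 10576 of them with 1 symbol (8267 genes) and 507 with several, which named no gene. Symbols of 10548 probes were updated through gene identifiers. Probes were placed on a grid of 215 by 105 positions in the row order given above, and a gene's probes were averaged.

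Two-sided tests came from limma 3.58.1 (R 4.3.3; functions lmFit, eBayes) over the 12 arrays and 8267 genes, and the replicate number entered each fit as a block. All 18 correlations of same-numbered arrays exceeded 0.1. The pairing comes from the titles alone. The fit was tested on data simulated from the same paired model, where it made 8 false calls. The design text's t-test, no block, median centring, quantile normalization, a trended prior, single probes, the median of a gene's probes, and leaving out arrays were the alternatives.

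Members named in the text were those called, those with the most positive or most negative change in each complex at each time, those past 0.3 in size and alike in 3 pairs, and a set of isoforms and subunits. Further members were named after their values were seen. The members and the 16 lists were chosen with earlier results of these data known.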

Additional observations from a re-analysis of the deposited data

How the results depend on the processing

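With no replicate block, the counts of genes called out of 8267 were 14 at 4 h (498 with the block), 0 at 12 h (156), 0 at 24 h (14), 0 for 12 h against 4 h (107), 6 for 24 h against 4 h (335) and 4 in the F test (412), and 0 members were called at 4 h (1 with the block). The methods' t-test on the same values, unpaired, called 474, 297 and 175 genes unadjusted at 4, 12 and 24 h. It called 414 for 12 h against 4 h and 578 for 24 h against 4 h. After Benjamini-Hochberg it called 0 at 4 h, 1 at 12 h, 0 at 24 h, and 0 and 1 between times. Adjusted or not, it called 0 members in each of these comparisons. Quantile normalization gave 2 members at 4 h (Ndufv2 and Ndufv3), 1 at 12 h and 1 in the F test (Ndufaf4 both times), and 163 genes for 12 h against 4 h. Before this normalization, the fit with the block called 6.02%, 1.89% and 4.98% of all genes at 4 h, at 12 h and in the F test. Tested as single probes over all 20280 value rows, 0 members passed at 4 h (Ndufv2 limma adjusted p = 0.059). In that test 4 rows passed at 24 h and 20 for 12 h against 4 h, counting rows with and without a gene name, not genes. Leaving out arrays gave 0 to 2 members at 4 h, 0 to 3 at 12 h, 0 to 3 for 24 h against 4 h and 0 to 2 in the F test. Over all genes it gave 20 to 642 at 4 h, 3 to 288 at 12 h, 0 to 16 at 24 h, 0 to 264 for 12 h against 4 h, 6 to 545 for 24 h against 4 h and 2 to 527 in the F test. Without control replicate 3, Cycs and Ndufaf4 were called at 4 and 12 h and in the F test, Ndufaf6 at 12 h (0.29, limma adjusted p = 0.04), and Atp5pb, Ndufb10 and Ndufaf4 for 24 h against 4 h. The share of all genes called without that array alone is not given here, so these member calls are not set against a background. The median change of complex II at 24 h ranged from -0.095 to 0.011. Median changes of the members over these exclusions were -0.19 to -0.018 at 4 h, -0.088 to 0.025 at 12 h and -0.070 to 0.052 at 24 h. At 24 h the median of complex IV was -0.042, and 0.014 after quantile normalization. That of complex V was 0.003, and -0.012 with each array centred on its median. The cause of these shifts was not tested.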
